A study of Homo sapiens with 18 samples.

Results

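The genes of the DEAD-box (DDX), DEAH-box (DHX) and eIF4A RNA helicases were taken from a long-read survey of transcriptional readthrough in K562, an established human chronic myeloid leukemia line that carries the BCR-ABL1 fusion. Members were all genes whose symbol begins with DDX or DHX and a number, plus EIF4A1, EIF4A2 and EIF4A3, after the transcript of each gene in the deposited table was matched to GENCODE 44. They were 50 of 13051 transcripts, 1 per gene, of which 12704 matched and 347 did not. All 50 are protein-coding: 32 DDX genes, 16 DHX genes and 2 eIF4A genes. The family has 57 protein-coding genes in GENCODE 44. DDX3Y, DDX4, DDX25, DDX43, DDX50, DDX60 and EIF4A3 were not analysed here.

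Nascent RNA was isolated from chromatin, depleted of poly(A)+ and ribosomal RNA, ligated to a 3′ adapter and sequenced as long reads, in 3 biological replicates of each of 6 groups. CTRL and CTRLim were both untreated K562 cells. JTE 1h cells received 5 µM JTE-607, an inhibitor of the CPSF73 endonuclease that cuts pre-mRNA at the poly(A) site, for 1 h, and KCl 45min cells received 110 mM KCl, a hyperosmotic shock, for 45 min. IM 1h and IM 18h cells received 1 µM imatinib, an inhibitor of the BCR-ABL1 kinase, for 1 h or 18 h. K562 is a single transformed line, so replicates were cultures of that line, and p-values measure the spread between these libraries.

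DEAD-box and DEAH-box proteins use ATP to unwind RNA or to strip proteins from it. They act at nearly every step of an mRNA's life: in splicing, in export, in ribosome assembly and in the scanning of messages by eIF4F, of which eIF4A is the helicase. A readthrough read is a molecule of nascent RNA whose 3′ end lies at least 100 nt beyond the annotated end of the gene, that is, RNA on which the polymerase passed the poly(A) site without cleavage. Values are RPM, readthrough reads divided by the filtered reads of the library and multiplied by 1000000. Reads ending inside the genes were not used here, so a change in uncleaved RNA and a change in transcription of the same gene cannot be told apart.

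The poly(A) signal is the sequence that cleavage depends on. The last 30 bases of the counted transcript are shown for the 5 members that passed the test against untreated cells or between the imatinib time points, because their reads were counted by how far they reach beyond these ends. Sequences are GRCh38 read on the strand of the gene, 5′ to 3′, with the annotated ends of GENCODE 44, and capitals mark the poly(A) signal hexamer.
EIF4A2, chr3:186789868-186789897, plus strand: atgttaAATAAAttgtatattcactttaaa
DDX5, chr17:64499616-64499645, minus strand: ccAATAAAaaatatttgaagactgaattaa
DDX17, chr22:38483440-38483469, minus strand: gtaggtataAATAAAaacactgttgacaat
DDX18, chr2:117832348-117832377, plus strand: ctgtgtcATTAAAtaattacttcaatgttg
DDX20, chr1:111767971-111768000, plus strand: cgatttagaaaaatataattggaaattaca
EIF4A2, DDX5 and DDX17 end on the canonical AATAAA and DDX18 on the variant ATTAAA. DDX20 has neither hexamer in its last 40 bases. Searched on the gene's strand in the last 40 bases, AATAAA was present in 33 of the 50 members (66.0%) and in 58.8% of all matched transcripts, and ATTAAA without AATAAA in 10 members (20%) against 13.9%. The remaining 7 members (14%, against 27.3% of all transcripts) held neither. A hexamer is a match of letters, not evidence of use.

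The position of an end bears on what its reads are. For DDX5, whose counted transcript ends in a last exon of 711 nt, GENCODE 44 lists 19 further transcripts that run over 100 nt beyond this end, 6 of them protein-coding, the longest by 1362 nt. For DDX20 there are 5, the longest reaching 7602 nt further. Reads counted for these genes can therefore also be reads of annotated longer transcripts, and their part was not tested. DDX1 and DHX8 are the other members with such transcripts, so 4 of 50 (8%) have them, against 6.27% of all matched transcripts. No longer transcript is listed for EIF4A2, DDX17 or DDX18. EIF4A2 ends within the span of RFC4 on the opposite strand and DDX17 within that of KDELR3, and 13 members in all end within an opposite-strand gene. DDX46 was counted on a transcript of 5 exons that ends within the span of C5orf24 on the same strand. In all, 4 members end within a same-strand gene, and the part of this in their counts was not tested. How strand entered the authors' counting is not given in the sources used here.

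The 18 libraries held from 229855 to 1349556 filtered reads, and from 8422 to 57982 readthrough reads each. Of the raw reads, 40.5% to 44.1% mapped in the CTRL, JTE 1h and KCl 45min libraries and 84.3% to 91.6% in the CTRLim and imatinib libraries, so the groups form 2 sets. JTE 1h replicate 1 stood apart, with readthrough in 3.06% of its reads against 5.05% and 5.40% in its partners. The paper lists a shorter median read for this library than for its partners. It also lists shorter reads for CTRL replicates 1 and 2 and KCl 45min replicate 1 than for the other libraries of those groups. The part of read length was not tested. CTRLim replicates 2 and 3 differed by no more than sampling noise (chi-square over degrees of freedom 1.03, against 1.32 and 1.40 for the other pairs of that group), as did all pairs of IM 1h (0.977 to 1.06). They are labelled as biological replicates and were kept apart, and the comparisons with CTRLim are also given with these 2 libraries summed. All 12 erythroid and leukemic markers of K562 had reads. Markers of other cell types had 3 reads in all, with PDGFRB and COL1A2 at 0.

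Helicase genes gave 5786 of 447434 readthrough reads (1.29%), and few genes gave most of them. EIF4A2, the eIF4A paralog that unwinds the leaders of mRNAs and also acts in miRNA repression, gave 2037 reads (35.2%). DDX5 and its paralog DDX17, coregulators of transcription and splicing, gave 1124 (19.4%) and 396 (6.84%). Together the 3 genes gave 61.5% of the members' reads. At the other end, 22 members had 1 to 29 reads in all libraries together and DDX46 and DDX51 had none, which allows up to 3 reads in 18 libraries. DDX3X, a translation helicase, had 4 reads. The median was 32.5 reads per member, against 10 for a transcript of the table. With at least 30 reads over the libraries compared as the requirement for a test, 17 members were tested in some comparison and 33 in none, so the tests speak for the more abundant members.

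Over all 18 libraries, the 10 members of highest mean readthrough were EIF4A2 (174.7 RPM), DDX5 (96.2), DDX17 (31.9), DDX18 (20.5), DHX9 (15.97), DDX20 (15.8), EIF4A1 (9.7), DHX30 (9.4), DDX56 (8.5) and DDX42 (8.1). A long read is 1 molecule whatever the length of its gene, so these levels were not divided by length. Every library held more EIF4A2 than DDX5 reads and more DDX5 than DDX17 reads. From DDX17 on, the order of neighbours differed between libraries: DDX17 exceeded DDX18 in 12 of 18 libraries, DDX18 exceeded DHX9 in 10, DHX9 exceeded DDX20 in 8, and DHX30 exceeded DDX56 in 10.

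The paralogs of eIF4A differed widely. EIF4A1 had 16.6, 14.6 and 7.7 RPM in CTRL, 15.2, 15.6 and 32.2 in JTE 1h, and 14.6, 0 and 5.7 in KCl 45min. It had 0, 5.6 and 8.1 RPM in CTRLim, 0, 10.5 and 11.2 in IM 1h, and 2.1, 11.0 and 3.0 in IM 18h. EIF4A2 thus exceeded EIF4A1 in every library. CD68 starts on the same strand 485 nt beyond the annotated end of EIF4A1.

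**Figure D1:**
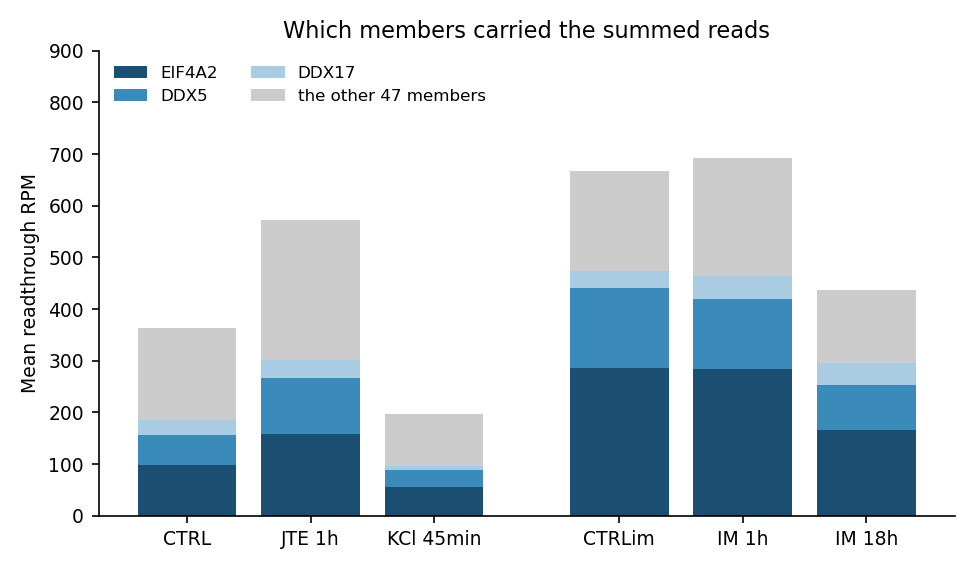
Mean readthrough RPM (y axis, stacked) in each of the 6 groups (x axis, 3 libraries each) for EIF4A2, DDX5, DDX17 and the other 47 members. EIF4A2 is the largest single member in every group, from 56.1 RPM in KCl 45min to 285.2 RPM in CTRLim.

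Summed over the 50 members, readthrough was lowest after KCl and, among the imatinib libraries, lowest at 18 h. The sums were 318.8, 409.3 and 359.6 RPM in CTRL, 326.4, 709.8 and 681.5 RPM in JTE 1h, and 170.5, 242.2 and 175.3 RPM in KCl 45min. In the other set they were 743.9, 631.4 and 625.6 RPM in CTRLim, 643.3, 722.2 and 712.6 RPM in IM 1h, and 472.4, 439.9 and 397.9 RPM in IM 18h. All KCl libraries lay below all CTRL libraries and all IM 18h libraries below all CTRLim and IM 1h libraries, while JTE 1h and CTRL overlapped because of JTE 1h replicate 1, and IM 1h and CTRLim overlapped throughout.

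As group means the sums were 362.6 ± 45.3 RPM in CTRL, 572.6 ± 213.6 in JTE 1h, 196.0 ± 40.1 in KCl 45min, 667.0 ± 66.7 in CTRLim, 692.7 ± 43.0 in IM 1h, and in IM 18h they fell to 436.7 ± 37.3 (SD, n = 3 each). The log2 ratio of means was 0.66 for JTE 1h and -0.89 for KCl 45min against CTRL, 0.05 for IM 1h and -0.61 for IM 18h against CTRLim, and -0.67 for IM 18h against IM 1h. Taken as a share of each library's readthrough reads, helicase reads made up 1.63% to 1.68% in CTRLim, 1.47% to 1.64% in IM 1h and 1.08% to 1.29% in IM 18h. For all members together, the IM 18h libraries were thus lower on this scale too, without overlap. In the other set the shares were 0.956% to 1.23% in CTRL, 1.07% to 1.35% in JTE 1h and 0.694% to 0.902% in KCl 45min, and JTE 1h and CTRL overlapped. Shares were not taken without EIF4A2, DDX5 and DDX17, so the lower IM 18h shares cannot be extended to the other members.

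**Figure D2:**
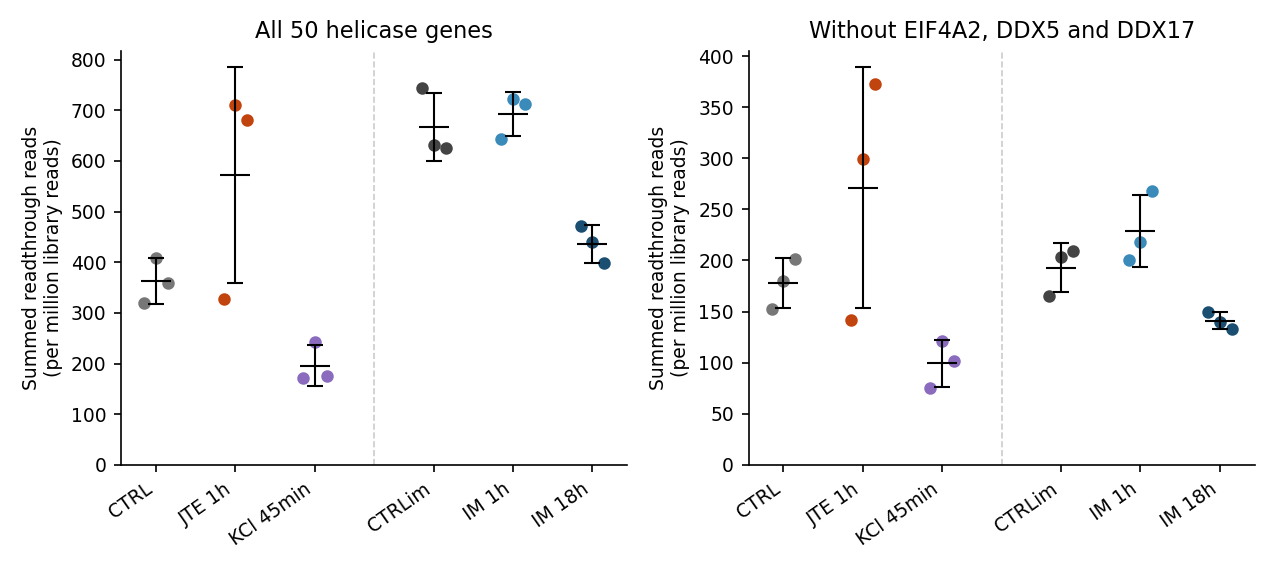
Summed readthrough RPM (y axis) by library (points) and group (x axis), with mean and SD bars (n = 3), for all 50 members (left) and for the 47 members other than EIF4A2, DDX5 and DDX17 (right). The dashed line parts the 2 sets of libraries. Per library read, the IM 18h points lie below the IM 1h and CTRLim points on both sides. CTRL and CTRLim differ clearly on the left (362.6 and 667.0 RPM) and little on the right (178.0 and 192.7 RPM). Shares of readthrough reads were not taken for the 47 members.

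Readthrough of EIF4A2, DDX5 and DDX18 was lower after 18 h of imatinib. Relative to CTRLim, 3 of 9 tested members passed the test, all lower (quasi-likelihood test of edgeR, with p-values adjusted over 1386 genes by the Benjamini-Hochberg method and a threshold of 0.05), where 8.95% of all genes tested were called lower. Without overlap between libraries, 4 members were lower (18.4% of all genes). The median log2 fold change was -0.67 over the tested members and -0.01 over all genes. Without IM 18h replicate 3, with DESeq2 or with all 18 libraries in one fit, DDX18 was the 1 member called, and with both untreated groups as control none was.

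EIF4A2 stood at 348.0, 253.7 and 253.9 RPM in CTRLim (80, 137 and 125 reads) and at 176.6, 174.6 and 148.2 RPM in IM 18h (166, 223 and 200 reads). Every IM 18h library was lower than every CTRLim library. The log2 fold change was -0.76 (SE 0.212, edgeR adjusted p = 0.0102), and EIF4A2 readthrough fell 1.71-fold between the group means.

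DDX5 had 191.4, 146.3 and 130.0 RPM in CTRLim against 96.8, 86.9 and 76.3 RPM in IM 18h. The libraries again did not overlap, and the log2 fold change was -0.82 (SE 0.229, edgeR adjusted p = 0.0102). Without IM 18h replicate 3 the adjusted p from the same edgeR test was 0.0686 for EIF4A2 and 0.0625 for DDX5, with log2 fold changes of -0.68 and -0.74.

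DDX18, a nucleolar helicase of pre-ribosome processing, had the largest decrease among tested members. It had 39.2, 33.3 and 34.5 RPM in CTRLim (9, 18 and 17 reads) and 17.0, 11.0 and 8.9 RPM in IM 18h (16, 14 and 12 reads). Its log2 fold change was -1.54 (SE 0.370, edgeR adjusted p = 0.00256), a 2.90-fold decrease of the mean. DDX23, the U5 snRNP helicase, was the fourth member without overlap, at 12.0 ± 3.9 RPM in CTRLim and 7.7 ± 1.5 RPM in IM 18h (SD, n = 3 each). Its log2 fold change of -0.72 did not pass the test (edgeR adjusted p = 0.353).

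DDX17, the paralog of DDX5, was not lower at IM 18h. It had 39.2, 27.8 and 32.5 RPM in CTRLim, 35.7, 57.6 and 37.4 RPM in IM 1h and 48.9, 39.1 and 40.01 RPM in IM 18h. The groups overlapped, with log2 fold changes of 0.40 relative to CTRLim (edgeR adjusted p = 0.418) and -0.02 relative to IM 1h (edgeR adjusted p = 0.973). Neither value passed the test. Within each library, DDX5 gave 4.9, 5.3 and 4.0 reads per DDX17 read in CTRLim, 4.0, 2.6 and 3.2 in IM 1h, and 2.0, 2.2 and 1.9 in IM 18h.

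This ratio is free of any scaling, and its IM 18h values lay below all CTRLim and IM 1h values. The log2 ratio differed by -1.21 between IM 18h and CTRLim and by -0.66 between IM 18h and IM 1h. For EIF4A2 over DDX17 the differences were -1.14 and -0.77, again without overlap of libraries. Each of these 4 comparisons gave p = 0.1 in a two-sided exact permutation test, before and after Benjamini-Hochberg adjustment, and a design of 3 against 3 libraries can give no smaller p.

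**Figure D3:**
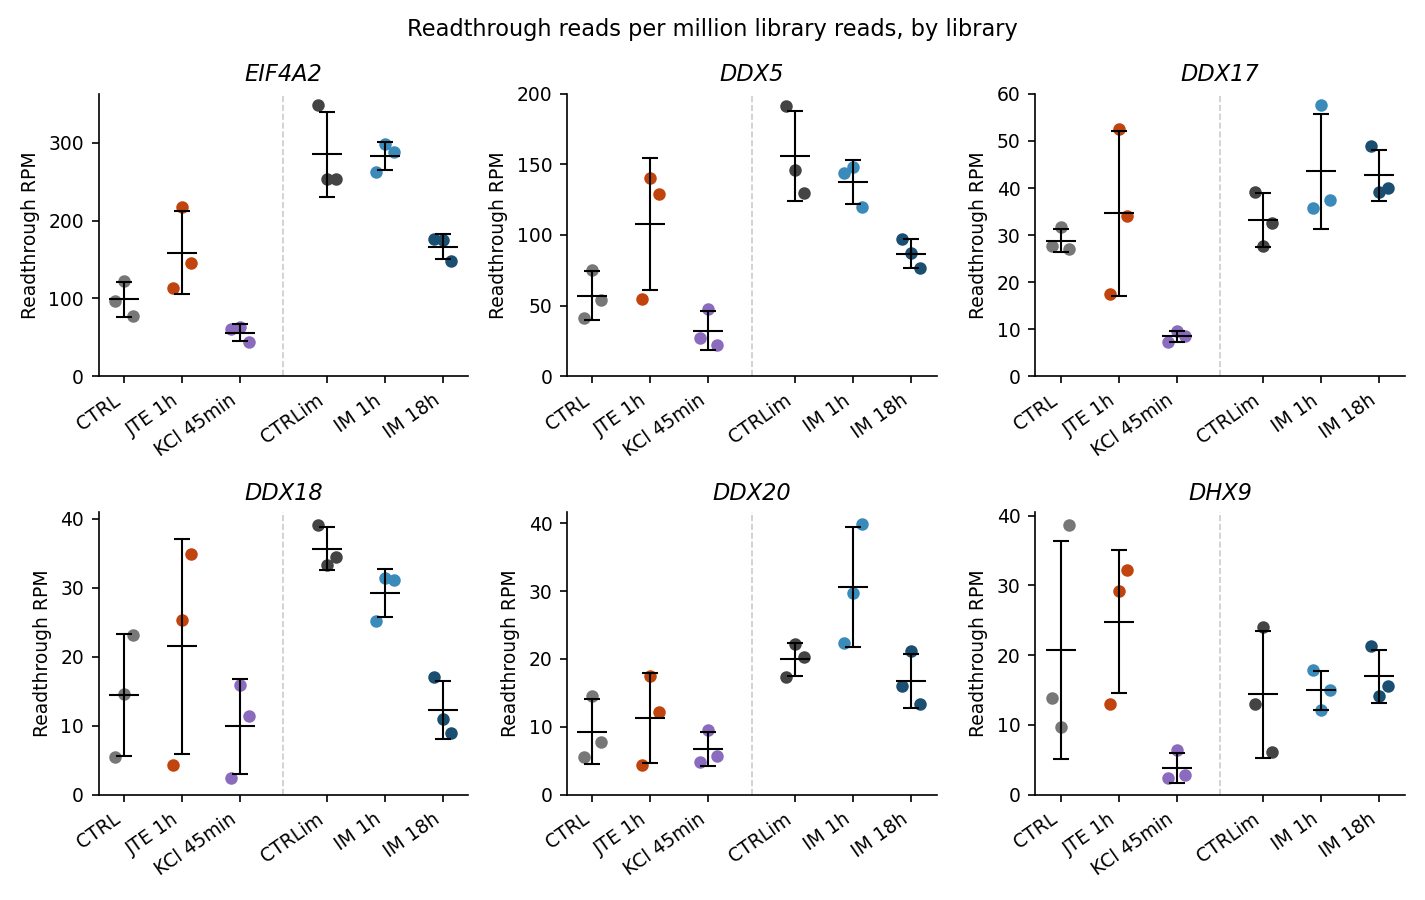
Readthrough RPM (y axes) by library (points) and group (x axes), with mean and SD bars (n = 3), for EIF4A2, DDX5, DDX17, DDX18, DDX20 and DHX9. EIF4A2, DDX5 and DDX18 are lower in all IM 18h libraries than in all CTRLim and IM 1h libraries, whereas DDX17 overlaps between these groups and is lowest in KCl 45min (8.5 ± 1.1 RPM).

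The same genes were lower when IM 18h was compared with IM 1h, and DDX20 with them. Relative to IM 1h, 4 of 15 tested members were lower at IM 18h and none higher, where 14.1% of 1720 genes were called lower, and 6 members were lower without overlap (26.3% of all genes). The median of all genes was itself -0.30 in this comparison, against -0.66 for the members.

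EIF4A2 fell from 263.0, 298.3 and 287.8 RPM in IM 1h to the IM 18h values above, with a log2 fold change of -0.77 (SE 0.121, edgeR adjusted p = 3.92e-07). DDX5 fell from 144.1, 148.3 and 119.6 RPM, with a log2 fold change of -0.66 (SE 0.155, edgeR adjusted p = 0.000738). DDX18 fell from 25.3, 31.4 and 31.1 RPM, with a log2 fold change of -1.29 (SE 0.336, edgeR adjusted p = 0.00285). The libraries of the 2 time points did not overlap for any of the 3 genes. These calls depend on the fit: DESeq2 and a fit of all 18 libraries called no member, with adjusted p of 0.262 and 0.193 for EIF4A2, 0.542 and 0.277 for DDX5, and 0.286 and 0.053 for DDX18. Scaling by readthrough total or by TMM kept EIF4A2 and DDX18 and left DDX5 at an edgeR adjusted p of 0.0577 and 0.105.

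DDX20, the Gemin3 subunit of the SMN complex that assembles splicing snRNPs, had 22.3, 29.7 and 39.9 RPM in IM 1h and 16.0, 21.1 and 13.3 RPM in IM 18h. Its log2 fold change was -0.88 (SE 0.310, edgeR adjusted p = 0.0343). This call was near the threshold: without IM 18h replicate 3, or IM 1h replicate 2 or 3, the edgeR adjusted p was 0.123, 0.0897 or 0.304, and with replicate number as a block it was 0.0528. Of 14 alternatives run, 11 lost the call of DDX20. DHX35, a DEAH-box protein found with spliceosomes, and DDX21, a nucleolar helicase, were the other members lower without overlap. Their log2 fold changes were -1.15 (edgeR adjusted p = 0.0622) and -0.96 (edgeR adjusted p = 0.212), and without IM 18h replicate 1 DHX35 passed the test (edgeR adjusted p = 0.0342).

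One hour of imatinib gave no call among 10 tested members by edgeR or by DESeq2, where edgeR called 1.52% of 988 genes in either direction, and 1 member had an unadjusted p under 0.05. EIF4A2 and DDX5 differed from CTRLim by log2 fold changes of 0.03 (SE 0.186, edgeR adjusted p = 0.949) and -0.14 (SE 0.201, edgeR adjusted p = 0.785). For DDX17 the log2 fold change was 0.42 (edgeR adjusted p = 0.531). In 3 members the libraries did not overlap, against 18.4% of all genes: DHX35 and DDX20 were higher and DDX18 lower.

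DHX35 had 4.4, 5.6 and 4.1 RPM in CTRLim and 11.9, 12.2 and 13.7 RPM in IM 1h. These are 1, 3 and 2 reads against 8, 7 and 11, and its log2 fold change of 1.37 did not pass the test (edgeR adjusted p = 0.275). Against a floor of 3 reads in each CTRLim library, the IM 1h mean was 1.53-fold higher, which is no lower bound. DDX20 (log2 fold change 0.59) and DDX18 (log2 fold change -0.25) had edgeR adjusted p of 0.441 and 0.755.

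Grouped by known role, and per library read, the libraries of IM 18h lay below those of CTRLim and IM 1h in 4 roles. Shares of readthrough reads were not taken for single roles. Translation helicases summed to 294.6 ± 53.8 RPM in CTRLim, 299.0 ± 25.1 in IM 1h and 181.9 ± 13.4 in IM 18h, and EIF4A2 was 166.5 RPM of the last. Splicing helicases went from 236.5 ± 28.8 and 236.2 ± 12.7 to 161.1 ± 17.5 RPM. Ribosome biogenesis helicases went from 70.3 ± 6.2 and 76.0 ± 12.6 to 32.4 ± 6.6 RPM (SD, n = 3 each). The mitochondrial DHX30 and DDX28 together had 19.9 ± 6.0 and 17.0 ± 1.1 RPM, and 12.0 ± 0.5 RPM in IM 18h. Few reads stand behind this last role. CTRLim replicate 1 had 13.1 RPM, from 3 DDX28 reads and no DHX30 read, against at most 12.6 RPM in IM 18h.

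The leading genes were then removed. The other 14 ribosome biogenesis genes, DDX18 left out, had 26.1, 35.2 and 42.7 RPM in CTRLim, 37.1, 47.1 and 56.1 RPM in IM 1h and 21.3, 22.7 and 16.3 RPM in IM 18h. The other 11 splicing helicases, DDX5 and DDX17 left out, had 39.2, 46.3 and 56.9 RPM in CTRLim, 55.0, 43.6 and 67.3 RPM in IM 1h and 35.1, 28.96 and 31.1 RPM in IM 18h. Per library read, the IM 18h libraries lay below all CTRLim and IM 1h libraries in both remainders. CTRLim replicate 1, the smallest library (229855 filtered reads), was the nearest of the CTRLim libraries. Shares of readthrough reads were not taken for these remainders. The other 4 translation helicases, EIF4A2 left out, had 8.7, 7.4 and 12.2 RPM in CTRLim, 7.4, 19.2 and 21.2 RPM in IM 1h and 10.6, 17.2 and 18.5 RPM in IM 18h. They were not lower, so the lower sum of the translation helicases was that of EIF4A2.

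Not every role moved this way. The remaining nuclear helicases, a group with DHX9, DDX1 and DDX20, stood at 41.1 ± 9.4 RPM in CTRLim, 57.5 ± 11.9 in IM 1h and 44.1 ± 5.2 in IM 18h, and CTRLim and IM 18h overlapped. DHX9, which resolves double-stranded RNA and R-loops, had 14.4 ± 9.1, 14.997 ± 2.8 and 17.0 ± 3.8 RPM in the same order.

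Known partners of the helicases were read from a list of 39 cofactors, among them eIF4F subunits, exon junction and SMN complex proteins, of which 38 were in the table. Relative to CTRLim none of the 6 tested at IM 1h and none of the 9 tested at IM 18h passed the test by edgeR. Relative to IM 1h, 1 of 10 was lower: EIF4B, the cofactor that stimulates eIF4A, fell from 33.1 ± 9.1 to 18.3 ± 7.2 RPM (log2 fold change -0.89, edgeR adjusted p = 0.0307). Of 16 other RNA helicases, 13 were in the table, up to 4 were tested in a comparison, and none was called. K562 markers moved the other way at IM 18h. Their summed readthrough was 253.7 to 417.7 RPM in CTRLim, 390.8 to 438.5 in IM 1h and 597.3 to 636.5 in IM 18h. HBE1 made up most of these sums, with means of 259.0, 319.7 and 445.4 RPM in the same order. HEMGN, TAL1, HBE1 and ABCB10 were among those called higher relative to CTRLim, where 72 of 1386 genes tested were called higher. The part of that shift in the helicase values was not tested.

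**Figure D4:**
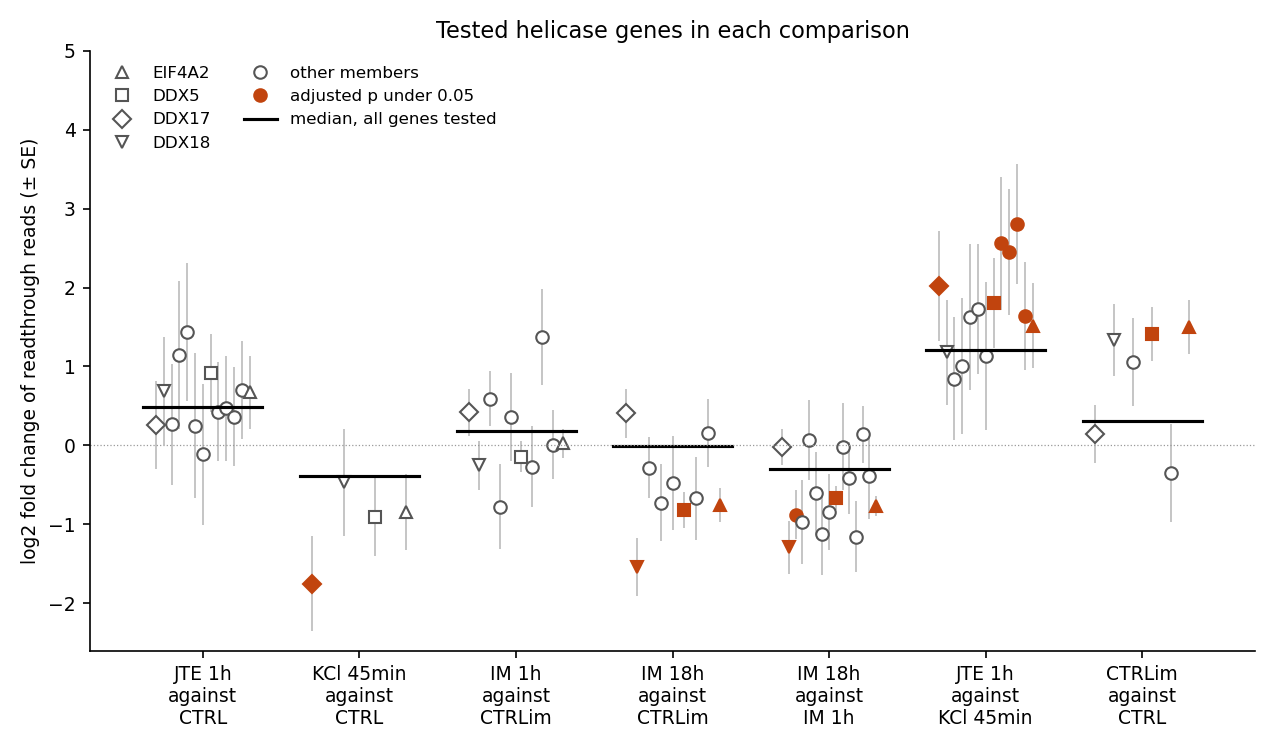
Log2 fold change of readthrough reads with SE (y axis) for each tested member in the 7 comparisons (x axis). Filled symbols have an edgeR adjusted p under 0.05, and black lines are the median over all genes tested. In IM 18h against CTRLim the 3 filled symbols (EIF4A2, DDX5 and DDX18) lie below zero and DDX17 above it, and in JTE 1h against KCl 45min the black line itself lies at 1.21.

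Of the tested members, DDX17 was called lower after hyperosmotic shock. The KCl 45min libraries had 7.3, 9.6 and 8.5 RPM (3, 3 and 9 reads) against 27.7, 31.7 and 27.1 RPM in CTRL (10, 13 and 7 reads). DDX17 was the 1 of 4 tested members called, a share near the 20.9% of 378 genes called lower. Its log2 fold change was -1.75 (SE 0.597, edgeR adjusted p = 0.0232), against a median of -0.39 over all genes, and the mean was 3.41-fold lower. Few reads stand behind this call: without KCl 45min replicate 1 or 3, or CTRL replicate 1 or 2, the edgeR adjusted p lay between 0.056 and 0.106 and no member was called. The call was also lost with readthrough total (edgeR adjusted p = 0.107), TMM (0.0843), no filter on reads (0.15) and DESeq2 (adjusted p = 0.25).

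EIF4A2 was the other member whose KCl libraries lay below all CTRL libraries (2 of 4 members, 28.0% of all genes), at 60.9, 63.7 and 43.6 RPM against 97.0, 121.8 and 77.3 RPM. Its log2 fold change was -0.85 (SE 0.480, edgeR adjusted p = 0.215). DDX5 had 26.8, 47.8 and 21.8 RPM in KCl 45min and 41.6, 75.5 and 54.1 RPM in CTRL, which overlapped (log2 fold change -0.91, edgeR adjusted p = 0.203). Neither of these 2 genes passed the test.

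Inhibition of CPSF73 gave no call among 13 tested members by edgeR or by DESeq2, and none had an unadjusted p under 0.05. Over all 969 genes edgeR called 0.103% higher, and 12.0% were higher without overlap, against none of the members. JTE 1h replicate 1 was the low library for the leading genes. EIF4A2 had 113.2, 217.8 and 145.5 RPM (log2 fold change relative to CTRL 0.68, SE 0.463, edgeR adjusted p = 0.611). DDX5 had 54.4, 140.0 and 129.0 RPM (log2 fold change 0.92, SE 0.493, edgeR adjusted p = 0.489). DDX17 had 17.4, 52.5 and 34.0 RPM (log2 fold change 0.26, SE 0.556, edgeR adjusted p = 0.876), and its replicate 1 was below every CTRL library. The median was 0.47 over the members and 0.49 over all genes.

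JTE 1h and KCl 45min, both compared with CTRL above, differed from each other in 7 of 13 tested members. All 7 were higher in JTE 1h, as were 34.1% of 999 genes, with 37.7% higher without overlap, and the median was 1.65 over the members and 1.21 over all genes. DHX9 led, with 13.1, 29.2 and 32.2 RPM in JTE 1h and 2.4, 6.4 and 2.8 RPM in KCl 45min (1, 2 and 3 reads). Its log2 fold change was 2.80 (SE 0.760, edgeR adjusted p = 0.00156). Against a floor of 3 reads in each KCl library the JTE 1h mean was 3.78-fold higher, which is no lower bound.

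DDX56, a nucleolar helicase of ribosome assembly, had 10.9, 21.4 and 17.4 RPM in JTE 1h and 0, 3.2 and 3.8 RPM in KCl 45min (log2 fold change 2.56, edgeR adjusted p = 0.00999). DHX30 had 6.5, 11.7 and 29.6 RPM against 0, 0 and 5.7 RPM (log2 fold change 2.45, edgeR adjusted p = 0.00947). In both genes all KCl libraries were below all JTE 1h libraries. Single libraries moved these fitted values: without 1 library at a time DDX56 ranged from 2.16 to 3.38 and DHX30 from 2.06 to 6.30, the highest without KCl 45min replicate 3 in both. Without that library no DHX30 read is left in KCl 45min, so its fitted value is no bound. DDX17 (log2 fold change 2.02, edgeR adjusted p = 0.0148), DDX5 (1.80 and 0.00699), EIF4A1, the major eIF4A of translation (1.65 and 0.0465), and EIF4A2 (1.52 and 0.0178) were the other members higher in JTE 1h. These values hold per library read: scaled by TMM or by readthrough total, DHX9 alone of the 7 was called, and with DESeq2 or without JTE 1h replicate 3 none was. EIF4A1 ranged from 1.23 without KCl 45min replicate 2 to 2.40 without KCl 45min replicate 1.

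The 2 untreated groups were not alike. CTRLim exceeded CTRL in EIF4A2 (285.2 ± 54.4 against 98.7 ± 22.3 RPM) and in DDX5 (155.9 ± 31.8 against 57.1 ± 17.2 RPM; SD, n = 3 each), without overlap. The log2 fold changes were 1.5 (SE 0.344, edgeR adjusted p = 0.00912) and 1.41 (SE 0.346, edgeR adjusted p = 0.0151), against a median of 0.31 over all genes. These were 2 of 6 tested members, where 10.2% of 472 genes were called higher, and 4 members were higher without overlap (25.8% of all genes).

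DDX5 was close to the threshold here: without CTRLim replicate 1 or 2, or CTRL replicate 1, its edgeR adjusted p lay between 0.0502 and 0.067, with CTRLim replicates 2 and 3 summed it was 0.0515, and the DESeq2 adjusted p was 0.0726. DDX18 (log2 fold change 1.34, edgeR adjusted p = 0.0655) and DDX20 (1.06 and 0.221) were also higher without overlap, and DDX18 passed the test without CTRL replicate 3 (edgeR adjusted p = 0.0146). DDX17 had a log2 fold change of 0.14 (edgeR adjusted p = 0.858). The share of mapped reads, 42.0% to 44.1% in CTRL and 86.7% to 91.6% in CTRLim, moved with this difference, and its part was not tested. Levels of treatments were therefore compared within each set of libraries. Summed over the 47 members other than EIF4A2, DDX5 and DDX17, the untreated groups overlapped, at 178.0 ± 24.4 RPM in CTRL and 192.7 ± 23.9 RPM in CTRLim (SD, n = 3 each).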

How the data were processed

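The authors trimmed adapters with cutadapt, mapped the long reads with minimap2 to GRCh38.p14, collapsed duplicates by molecular identifier, discarded reads that were polyadenylated, multiply mapped or splicing intermediates, and deposited raw counts of readthrough reads on 1 transcript of each gene, chosen for the furthest 3′ end. Versions are not printed here. Transcripts were matched to GENCODE 44. RPM divides a count by the filtered reads of the library, taken from the study's mapping statistics and checked against the group sums printed there. No value columns were left unused for lack of a label.

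Genes with at least 30 reads over the libraries compared were tested with edgeR 4.0.16's quasi-likelihood test on the deposited counts, with filtered reads as library size and Benjamini-Hochberg adjustment over all genes tested. SE is the log2 fold change divided by the square root of F. DESeq2 1.42.0 was an alternative. Fits were tested on simulated data. The members, the lists and the named genes were chosen with earlier results of these data known. Named were DDX5, DDX17, EIF4A2, the 10 members of highest mean RPM, members called in any comparison, the 5 largest changes without overlap per comparison, and up to 5 called genes per list. Log2 fold changes are given for named members that were called or did not overlap, and for DDX5, DDX17 and EIF4A2 throughout. The labels give replicate numbers only. These were taken to pair JTE 1h with KCl 45min alone, where the deviations of same-numbered libraries correlated at 0.272, 0.228 and 0.133. For CTRL the correlations were 0.252, -0.011 and 0.238 with JTE 1h, and 0.301, 0.037 and 0.225 with KCl 45min. Intervals between libraries cover these cultures only, and floors cover counting error only. The result of 1 gene of the marker list is not reported here.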

Additional observations from a re-analysis of the deposited data

Results flagged for a closer look

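Between the 2 imatinib time points, measured against the same untreated cells, 4 helicase genes had a log2 fold change that passed edgeR's test of the difference itself, and none passed it with DESeq2 or with all 18 libraries in one fit. It was -0.77 for EIF4A2, -0.66 for DDX5, -1.29 for DDX18 and -0.88 for DDX20 (IM 18h relative to IM 1h). All 3 IM 18h libraries lay below all 3 IM 1h libraries in each gene. With readthrough total or TMM as the scale, EIF4A2 and DDX18 passed. Dixon's test for outlying libraries was not run on groups of 3.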

How the results depend on the processing

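The absence of calls in JTE 1h against CTRL and in IM 1h against CTRLim held under every alternative run. In KCl 45min against CTRL, 1 member was called. Scaling by readthrough total or by TMM, no filter on reads, or DESeq2 gave 0, a minimum of 10 reads gave 2, and both untreated groups as control gave 5. In IM 18h against CTRLim, 3 were called, against 1 with DESeq2 or with all 18 libraries in one fit (DDX18 both times) and 0 with both untreated groups as control. In IM 18h against IM 1h, 4 were called, against 3 with mapped reads as library size, a minimum of 10 reads or no filter. Readthrough total or TMM gave 2 (EIF4A2 and DDX18), and DESeq2 or all 18 libraries in one fit gave 0. In JTE 1h against KCl 45min, 7 were called, against 1 with readthrough total or TMM, 2 with no filter and 0 with DESeq2. In CTRLim against CTRL, 2 were called, against 1 with DESeq2 or with CTRLim replicates 2 and 3 summed. Fewer reads per group, or more genes in the adjustment, are part of some alternatives by construction, and the cause of the other shifts was not tested.

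Leaving out 1 library at a time gave 0 to 1 called members in KCl 45min against CTRL, 1 to 3 in IM 18h against CTRLim, 3 to 5 in IM 18h against IM 1h, 0 to 9 in JTE 1h against KCl 45min and 1 to 3 in CTRLim against CTRL. The log2 ratios of the sums then ranged from 0.47 to 0.94 for JTE 1h and from -1.07 to -0.79 for KCl 45min against CTRL, from 0.01 to 0.14 for IM 1h and from -0.67 to -0.53 for IM 18h against CTRLim, from -0.73 to -0.60 for IM 18h against IM 1h, from 1.36 to 1.83 for JTE 1h against KCl 45min and from 0.79 to 0.98 for CTRLim against CTRL. Scaled by readthrough total, the log2 ratio of the sums was -0.41 for KCl 45min against CTRL, -0.068 for IM 1h against CTRLim, -0.42 for IM 18h against IM 1h, 0.63 for JTE 1h against KCl 45min and 0.63 for CTRLim against CTRL. Per library read, the log2 ratio for CTRLim against CTRL was 0.88, and 0.53 without EIF4A2. Without EIF4A2, DDX5 and DDX17, an alternative chosen after seeing the data like the summing of CTRLim libraries, it was 0.12, and the log2 ratio was 0.25 for IM 1h and -0.45 for IM 18h against CTRLim.

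With replicate number as a block, 7 members were still called in JTE 1h against KCl 45min, with a log2 fold change of 2.84 for DHX9. This was the 1 comparison whose numbers were taken to pair the samples. The block gave 3 in place of 4 called members in IM 18h against IM 1h (DDX20 was lost) and the main number elsewhere.

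Signs turned only in values that had not passed the test. EIF4A2 turned to -0.27 in JTE 1h with both untreated groups as control. In IM 1h against CTRLim it turned to -0.11 (readthrough total), -0.14 (TMM), -0.13 (DESeq2), -0.00060 (all 18 libraries) and -0.031 (CTRLim replicates 2 and 3 summed), with -0.050 to 0.16 without single libraries. In the same comparison, both untreated groups as control gave 0.37 for DDX5 and 0.22 for DDX18. DDX17 turned to -0.20, -0.24 and -0.18 in JTE 1h against CTRL and to -0.084, -0.24 and -0.19 in CTRLim against CTRL, by readthrough total, TMM and DESeq2. In IM 18h against IM 1h it turned to 0.064 (mapped reads), 0.23 (readthrough total), 0.28 (TMM) and 0.29 (DESeq2). Without single libraries DDX17 ranged from -0.12 to 0.53 in JTE 1h against CTRL and from -0.13 to 0.21 in IM 18h against IM 1h. Of 344 alternative values of named members whose fold change is not given, 302 kept sign and side of the threshold, 39 turned sign and 3 became called. Depth is a limit: 33 of 50 members had too few reads for a test in any comparison, and a change in them was not detectable at this depth.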
